A study of Homo sapiens with 33 samples.

Results

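Genes of amyloid precursor and tau biology were followed through a study of a disease-linked hnRNPA1 mutation. They were APP, its relatives APLP1 and APLP2, the secretase genes BACE1 and PSEN2, and the tau gene MAPT. These 6 of 44786 genes in the count tables were chosen by name, with earlier splicing results of these data known, and not by a threshold on a value. They account for 179 of 196840 sub-junction entries in the authors' splicing tables. A sub-junction is 1 splice junction within a set of junctions that share a splice site, and its usage is its percent of the reads of that set.

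APP is a membrane protein that is cut in turn by beta-secretase, which BACE1 encodes, and by gamma-secretase, whose catalytic subunit can be the presenilin made from PSEN2. The products include amyloid-beta peptides, while APLP1 and APLP2 are cut in similar ways but lack the amyloid-beta stretch. Exon 7 of APP encodes a Kunitz-type protease inhibitor (KPI) domain and exon 8 a short OX-2 stretch. Neurons make mostly APP without both, and many other cells make the KPI-containing forms. hnRNPA1, an RNA-binding protein that often reduces the inclusion of exons, has been reported to act on APP exon 7. MAPT encodes tau, which binds microtubules in axons.

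The RNA-seq covered 7 groups of 3 libraries from 2 established human cell lines. Undifferentiated SH-SY5Y neuroblastoma cells were wild-type (WT) or homozygous for the D262V substitution in the low complexity domain of hnRNPA1. Differentiated SH-SY5Y cells were WT, homozygous or heterozygous, and were harvested on day 18 after 10 µM retinoic acid throughout and 50 ng/mL BDNF with dibutyryl cyclic AMP, B-27 and KCl in the last medium. Flp-In T-REx 293 cells, of embryonic kidney origin, carried a WT or a D262V hnRNPA1 transgene that 1 µg/mL tetracycline had switched on for 72 hr, so their control group also carried a transgene. The homozygous and heterozygous comparisons shared the 3 differentiated WT libraries. No label names a clone or separate cultures for the replicates, so p-values measure only the spread between these libraries, which may be technical. hnRNPA1 irCLIP (crosslinking and immunoprecipitation with an infrared adapter) gave 4 lists of clusters, 1 for each genotype and cell line, with 3 samples pooled in each, and the labels of its SH-SY5Y samples give neither zygosity nor differentiation state.

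Differentiated libraries had 8.72 to 15.3 M reads in genes, undifferentiated libraries 3.62 to 6.85 M and Flp-In libraries 1.99 to 2.91 M (M, 1e6). A further 92.2% to 94.6% of uniquely aligned reads had been put in no gene. Noradrenergic neuroblast markers summed to 384 to 471 counts per 1e6 gene reads (CPM) in SH-SY5Y libraries and 18.4 to 26.3 CPM in Flp-In libraries. In SH-SY5Y libraries 7 of the 9 markers exceeded 1 CPM on average, and of the defining markers CHGA was at 0 in every library and TH at or near 0. Neuronal markers came to 195 to 1830 CPM in SH-SY5Y libraries, mesenchymal ones to at most 120 CPM and Schwann-like ones to 4.21 to 30.4 CPM. Embryonic kidney markers came to 2.48 to 10.3 CPM in Flp-In libraries, with 2 of 6 above 1 CPM. HNRNPA1 itself had 27.0 to 44.4 CPM on average in the SH-SY5Y groups and 196 and 199 CPM in the Flp-In groups, and gene counts cannot show the substitution.

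The gene counts of these genes were far below their splice-junction reads. In the heterozygous comparison, the most-read listed APP junction had 265137 reads over the 6 libraries and the whole APP gene 8985, a ratio of 29.5. For PSEN2 the ratio in the same comparison was 50.3. Across all genes with a listed junction, 82.0% to 87.7% had more reads on 1 junction than in the gene, with median ratios of 8.07 to 10.2. The library kit marks strand, with the strand setting of the counting not given in the sources used here, and the cause was not tested. If reads had been counted on the strand opposite to the one the kit marks, gene counts would describe antisense and overlapping transcripts, and this was not tested. What share of a gene's counts came from its own transcripts is thus not known, and a change in gene counts below is one of reads assigned to the gene. Levels are therefore given both by gene counts and by junction reads, of which the sum also moves with how many exons are joined. BACE1 has an antisense partner, BACE1-AS, whose counts of 1503 to 2760 per differentiated library lay near the 2769 to 4148 of BACE1, and reads of that pair cannot be told apart here.

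The clearest splicing difference among the 6 genes lay in APP in heterozygous D262V cells. Exon 7 (chr21:26000014-26000181, 168 nt, minus strand, hg38) and exon 8 (chr21:25997359-25997415, 57 nt) both keep the reading frame. Of reads leaving exon 6, the share joined to exon 7 was 18.86%, 19.47% and 18.70% in the differentiated WT libraries and 35.94%, 37.71% and 34.43% in the heterozygous ones. Every heterozygous library thus lay far above every WT library, with means of 36.0% ± 1.64 and 19.0% ± 0.41 (SD, n = 3). Between 50048 and 93489 reads left exon 6 in each library. For this junction the adjusted p in the authors' deposited table was 1.9e-09. Groups that do not overlap were common, at 41.5% of all sub-junction entries in this comparison, 34.8% in the homozygous one, 29.2% in undifferentiated and 44.3% in Flp-In cells.

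Markers of other cell types moved with the heterozygous group. The 6 mesenchymal or substrate-adherent markers summed to 16.95 to 25.3 CPM in differentiated WT and 46.7 to 51.4 CPM in heterozygous libraries, with 4 and 5 of them above 1 CPM and PRRX1 at 0 in both groups. VIM, the vimentin gene, had 2.06 to 2.74 CPM in WT and 5.38 to 7.83 CPM in heterozygous libraries. The 6 Schwann-like or glial markers summed to 13.8 to 15.2 and 21.1 to 30.4 CPM, with 3 above 1 CPM in both groups. FABP7, a glial fatty acid binding protein gene, was at 0 in every WT library and at 11.2 to 15.9 CPM in heterozygous ones, whereas S100B stayed under 1 CPM. All 7 neuronal maturation markers exceeded 1 CPM in both groups, summing to 1172 to 1214 and 993 to 1164 CPM. DCX, the doublecortin gene, had 17.5 to 23.4 CPM in WT and 5.67 to 9.54 CPM in heterozygous libraries. STMN2 and MAP2 were also lower there without overlap. NEFL was higher without overlap, at 99.2 to 104 CPM in WT and 105 to 120 CPM in heterozygous libraries. NEFM, GAP43 and TUBB3 overlapped between the groups. These markers also stand beside the APLP1, APLP2, PSEN2 and list results of heterozygous cells below, and their part in those results and in the APP difference was not tested.

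Exon 8 followed exon 7 more often as well. Of reads leaving exon 7, those joined to exon 8 made up 24.80%, 25.32% and 24.18% in WT and 50.76%, 49.26% and 49.44% in heterozygous cells. The mean share went from 24.8% ± 0.573 to 49.8% ± 0.817, with an adjusted p of 4e-18 in the authors' deposited table. Counted from the other side, exon 8 was entered from exon 7 rather than directly from exon 6 in 65.8% of its reads in WT and 88.7% in heterozygous cells. The junction that passed over both exons, from exon 6 to exon 9, took 78.9% ± 0.521 of exon 6 reads in WT and 62.1% ± 1.6 in heterozygous cells, on 43354 to 73254 and 31109 to 34584 reads per library.

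In homozygous D262V cells the entry into exon 7 overlapped with WT, while the choices that involve exon 8 lay apart from it. Exon 6 was joined to exon 7 in 20.29%, 19.56% and 19.29% of reads, against 18.85%, 19.45% and 18.7% in WT, and the groups overlapped. Exon 7 was joined to exon 8 in 35.15%, 35.23% and 33.97%, a mean of 34.8% ± 0.705, and no library overlapped with WT. The authors' deposited table gave adjusted p-values of 0.96 for the first choice and 0.0025 for the second. Of reads entering exon 8, those from exon 7 made up 65.85% in WT and 80.55% in homozygous cells on average, without overlap. For the entries into exon 8 from exon 7 and from exon 6 the adjusted p-values in that table were 1e-06 and 1.1e-06. Homozygous values of the second choice lay between WT and heterozygous values. The difference between heterozygous and homozygous cells was not tested for splicing, since the authors' tables compare each with WT only, and the label of zygosity cannot be told apart from the clone.

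**Figure D1:**
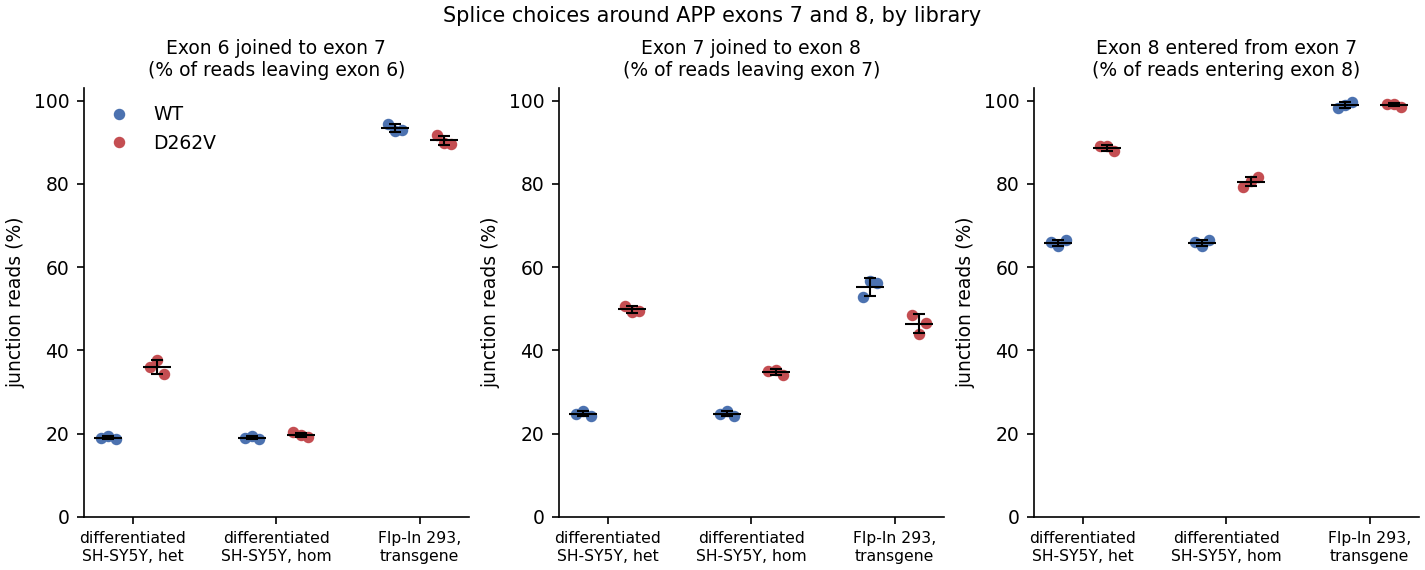
Each point is 1 library, with the group mean and SD as bars, and the vertical axes give junction reads as a percent of the reads at the splice site named above each panel (blue WT, red D262V). Heterozygous cells stand above WT in all 3 panels, homozygous cells in the 2 panels that involve exon 8, and Flp-In cells start from a far higher use of exon 7.

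Flp-In cells used both exons much more, and there the D262V values were the lower ones. Exon 6 was joined to exon 7 in 94.42%, 92.61% and 93.06% of reads with the WT transgene and in 91.75%, 89.90% and 89.72% with the D262V transgene. Exon 7 was joined to exon 8 in 52.78%, 56.65% and 56.15% against 48.49%, 44.04% and 46.63%. The groups did not overlap in either choice, but only 905 to 1297 reads left exon 6 per library, and the authors' deposited table gave adjusted p-values of 0.4 and 0.25. No exon 7 or exon 8 event was listed for undifferentiated cells.

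Multiplying the successive choices gives an estimate of 4 transcript types, named by the protein length they would encode with all other coding exons in place. The estimate assumes that each choice is independent of the one before. The type without exons 7 and 8, APP695, made up 78.9% in differentiated WT cells, 62.1% in heterozygous and 78.8% in homozygous cells. The full type with both exons, APP770, went from 4.71% ± 0.207 in WT to 18.0% ± 0.818 in heterozygous cells, a 3.81-fold difference, and to 6.86% ± 0.291 in homozygous cells. APP751, with exon 7 alone, was at 14.3%, 18.1% and 12.9% in the same order. APP714, with exon 8 alone, was at 2.14%, 1.83% and 1.48%. In Flp-In cells APP770 was 51.5% with the WT and 42.0% with the D262V transgene, while APP751 was 41.8% and 48.5% and APP695 6.09% and 9.12%.

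**Figure D2:**
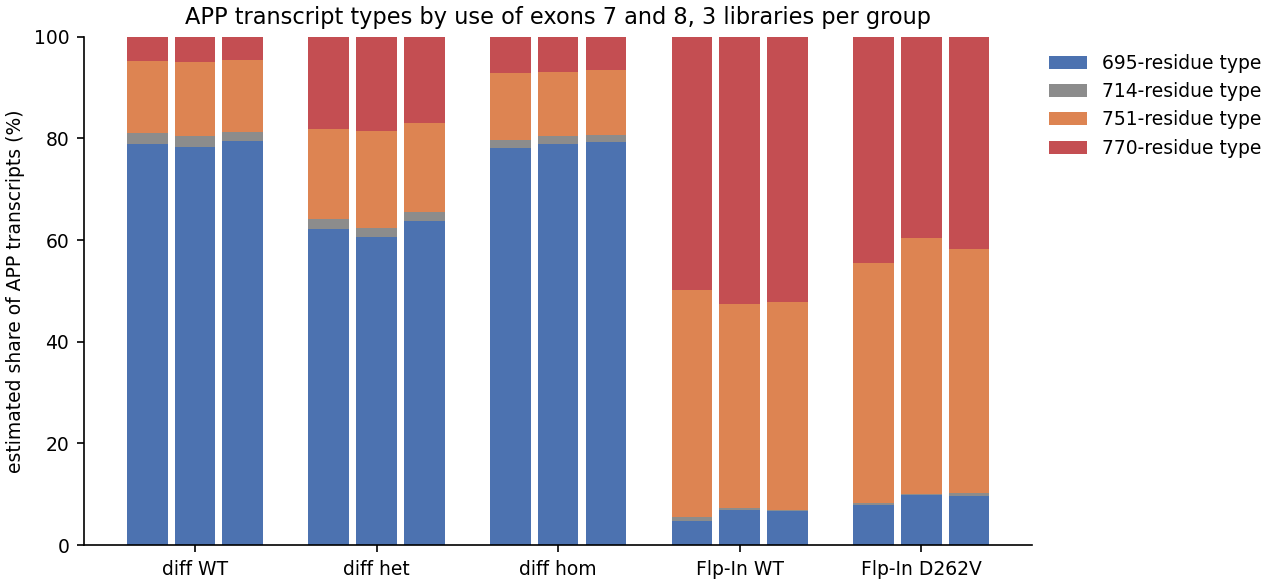
Stacked bars give the estimated percent of APP transcripts of each type in 1 library, 3 bars per group (diff, differentiated SH-SY5Y). APP695 (blue) is the main type in all differentiated SH-SY5Y libraries and the APP770 part (red) is widest there in the heterozygous ones, at 18.0% on average, whereas APP695 stays under 10% in Flp-In cells.

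Counted over all listed entries, 98 sub-junctions of these genes stood in the heterozygous table (33 of APP, 29 of APLP1, 11 of APLP2 and 25 of PSEN2). The authors' adjusted p was under 0.05 for 19 of them (15 of APP, 3 of APLP1 and 1 of PSEN2), and for 8.67% of all entries. In the homozygous table it was for 4 of 34, against 2.86%, and in undifferentiated and Flp-In cells for 0 of 35 and 0 of 12, against 5.32% and 4% of all. A sub-junction was called changed when that p was met, the usage means lay at least 10 percentage points apart without overlap of the groups, and no library had under 20 reads for the event. By this rule 7 of the 98 were changed, 3 higher and 4 lower, all in APP around exons 6 to 9, where 3.5% of all 77923 entries were (1.77% higher, 1.73% lower). For homozygous cells the number was 4 of 34, 2 higher and 2 lower and again all in APP exons 6 to 9, where 1.04% of 62764 were changed (0.524% higher, 0.513% lower). None of 35 in undifferentiated cells and none of 12 in Flp-In cells were changed, against 2.05% and 1.29% of all entries. Since splicing values helped to choose these genes, nothing is read from these shares. Just outside the rule stood the junction from exon 8 to exon 9 in heterozygous cells, at 6.10%, 5.43% and 5.24% of reads entering exon 9 in WT and 16.17%, 15.33% and 14.33% in heterozygous cells. Just inside it stood the homozygous exon 7 to 8 junction, with a difference of 10.0 points.

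Other optional exons of APP differed little in absolute terms, though entries at exons 2, 10 and 11 passed the authors' adjusted p in heterozygous cells. Exon 10 (75 nt) was skipped in 2.25% of reads in WT and 1.18% in heterozygous cells, and in 2.34% and 1.91% in the homozygous table. For the junction that passes over exon 10 alone the authors' deposited table gave adjusted p-values at its 2 splice sites. They were 0.0042 and 0.0025 in heterozygous and 0.9 and 0.89 in homozygous cells. Exon 11 (159 nt) was skipped in 1.71% and 1.03% of reads in WT and heterozygous cells. The junction that passes over exons 10 and 11 together had 0.016 and 0.077 in heterozygous and 0.51 and 0.64 in homozygous cells. Exon 2 (168 nt), near the 5′ end, was skipped in 26, 43 and 28 WT reads and in 9, 11 and 4 heterozygous reads. The authors' adjusted p was 0.051 and 0.068 for its skipping junction and 0.018 and 0.027 for its inclusion junctions. Exon 15 (54 nt), whose omission makes the leukocyte-type L-APP forms, was listed in undifferentiated cells only, where 5, 0 and 0 WT reads and 31, 9 and 8 homozygous reads passed over it. Those skipping shares, 0.0335% and 0.299%, left exon 15 in nearly all transcripts of both genotypes.

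hnRNPA1 clusters were spread over APP in all 4 irCLIP lists. They numbered 286 and 308 in Flp-In cells with the WT and the D262V transgene, and 282 and 259 in WT and D262V SH-SY5Y cells, or 8.91 to 10.6 per 10 kb of the 291 kb gene. The median gene with any cluster had 8.55 to 8.95 per 10 kb, so APP lay near it. In SH-SY5Y cells 91.5% of WT clusters overlapped a D262V cluster and 92.7% of D262V clusters overlapped a WT one. No cluster in any list touched exon 7 or exon 8. The nearest began 247 to 295 nt upstream of exon 8, with authors' scores of 17, 45, 34 and 28 in the order given above. A stronger cluster 631 to 739 nt downstream of exon 8 had scores of 295, 414, 501 and 487, and one 1335 to 1345 nt upstream of exon 7 had 101, 86, 232 and 233. Scores are the authors' own values without a stated unit, and lists of pooled samples allow no test between genotypes.

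**Figure D3:**
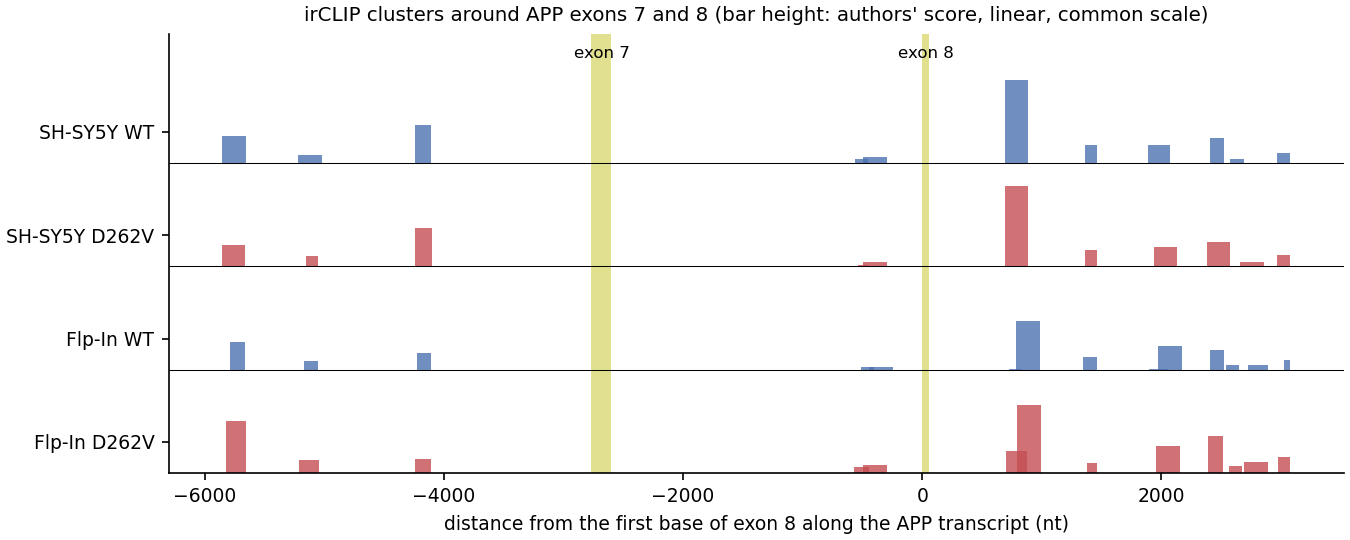
The horizontal axis is distance in nucleotides along the APP transcript from the first base of exon 8, each row is 1 pooled irCLIP list, and bar height is the authors' cluster score on 1 linear scale. The 4 rows have clusters at much the same places, with exons 7 and 8 (yellow) free of them and the tallest bar 631 to 739 nt past exon 8.

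In APLP1, the relative of APP found mainly in neurons, a short exon of 27 or 24 nt (chr19:35878081-35878107, plus strand; the shorter form starts 3 nt later) had more reads passing over it in heterozygous cells. The skipping junction had 0, 1 and 2 reads in differentiated WT and 23, 36 and 12 in heterozygous libraries. In undifferentiated cells it had 0, 4 and 0 reads in WT and 21, 24 and 12 in homozygous libraries. In neither comparison did a D262V library overlap with its WT group. With the mean of both inclusion junctions, the inclusion share of the 27-nt form (D262V minus WT) was -1.07 points in heterozygous and -1.485 points in undifferentiated homozygous cells. The downstream inclusion junction is shared with the 24-nt form, and on the upstream inclusion junction alone, which the 24-nt form does not use, these became -2.392 and -3.905 points. For the skipping junction the authors' deposited table gave adjusted p-values at its 2 splice sites. They were 0.0002 and 8.2e-05 in the heterozygous comparison and 0.28 at both in undifferentiated cells, so the undifferentiated difference did not pass. The upstream inclusion junction of the 27-nt form did not pass in either, with 0.96 in heterozygous and 0.94 in undifferentiated cells. The differentiated homozygous table listed no APLP1 event. Among other APLP1 exons, one of 159 nt was skipped in 3.72% of WT and 1.41% of homozygous reads in undifferentiated cells, and one of 63 nt in 0.238% of WT and 0.436% of heterozygous reads.

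Junctions at the ends of APLP1 did not move together in heterozygous cells. The 5′ junction chr19:35869810-35870894 had 65.9, 64.5 and 61.3 junction reads per 1e6 uniquely aligned reads (RPM) in WT and 35.1, 37.0 and 15.4 in heterozygous libraries. Near the 3′ end, chr19:35878952-35879072 had 25.3, 26.9 and 23.6 in WT and 43.3, 27.0 and 19.9 in heterozygous libraries. The groups were apart at the 5′ junction and overlapped at the 3′ one, and the part of RNA quality in this was not tested.

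APLP2 carries its own KPI-encoding exon and a 36-nt exon (chr11:130137255-130137290, plus strand) before the transmembrane part. The 36-nt exon was included in 6.52% ± 0.376 of WT and 7.09% ± 0.553 of heterozygous reads, and in 16.96% ± 3.68 of WT and 21.2% ± 3.18 of homozygous reads in undifferentiated cells, with overlapping groups in both. A 153-nt exon upstream (chr11:130135562-130135714) was skipped in 1.80% of WT and 1.17% of heterozygous reads. In undifferentiated cells its skipping was 2.54% in WT and 0.629% in homozygous cells. The libraries did not overlap in either comparison, as in 41.5% and 29.2% of all entries, and for the skipping junction at its 2 splice sites the adjusted p in the authors' deposited table was 0.26 and 0.32 in heterozygous and 0.31 and 0.21 in undifferentiated cells. A later acceptor, 45 nt inside the exon that follows the 36-nt one, was used at 4.48, 4.72 and 4.55 RPM in WT and 2.20, 3.34 and 2.74 in heterozygous libraries, with an adjusted p of 0.25 for its usage in the authors' deposited table.

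PSEN2 had no sub-junction changed by the rule, and its skipped exons went both ways in heterozygous cells. Near the 5′ end, exons of 161 and 215 nt were skipped in 4.49% and 5.37% of WT reads and in 2.87% and 2.86% of heterozygous reads, without overlap. An exon of 142 nt after them was skipped in 1.92% and 1.14%, with overlap. For the junctions that pass over these exons the adjusted p-values in the authors' deposited table were 0.33 to 0.86. Further along the gene 2 skipping events had the opposite order. An exon of 99 nt (chr1:226890034-226890132, plus strand) was skipped in 10, 19 and 11 WT reads and in 16, 35 and 20 heterozygous reads, or 1.91% ± 0.154 and 4.63% ± 1.76, with adjusted p-values of 0.26 and 0.25 in the authors' deposited table. A junction that passed over the exons between chr1:226891844 and 226897718 was used at 0.62%, 0.12% and 0.56% in WT and 1.88%, 2.37% and 2.71% in heterozygous cells, with an adjusted p of 0.052 in the authors' deposited table. Its partner at the same donor, chr1:226891844-226894005, was the only PSEN2 entry under 0.05 (0.0097 in the authors' deposited table), with a usage of 99.38%, 99.88% and 99.44% in WT and 98.12%, 97.63% and 97.29% in heterozygous cells. In Flp-In cells an acceptor at the start of a 310-nt exon took 9.01%, 16.85% and 12.66% of reads with the WT and 3.39%, 5.88% and 5.19% with the D262V transgene, with an adjusted p of 0.29 in the authors' deposited table. The groups did not overlap in the last 3 skipping or acceptor events, which rested on 1 to 35 reads per library. In undifferentiated cells an exon of 143 nt (chr1:226871261-226871403) was passed over by 0, 0 and 0 WT reads and 0, 10 and 11 homozygous reads. The groups overlapped there, and the authors' deposited table gave no adjusted p for that skipping junction.

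MAPT had a single listed event, classed by the authors as intron retention, in the homozygous table. It spanned 32 nt on an alternate chromosome 17 sequence, and whether this stretch is an intron was not tested. Its retention was 13.51%, 8.86% and 20.69% in WT and 26.53%, 29.09% and 31.46% in homozygous libraries. The libraries did not overlap, on 5 to 28 retained-intron reads each, with an adjusted p of 0.39 in the authors' deposited table. The optional tau exons that set the number of microtubule-binding repeats were not among the listed events, and no sub-junction of BACE1 was listed in any comparison.

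Total levels of the 6 genes mostly did not differ between D262V and WT cells by more than the spread of libraries. By gene counts no member passed edgeR's quasi-likelihood test (Benjamini-Hochberg adjusted p under 0.05 over all genes) in undifferentiated homozygous, differentiated homozygous, heterozygous or Flp-In cells, where 3.67%, 6.08%, 16.4% and 5.84% of all genes did. DESeq2 called none either, and an unadjusted p under 0.05 was reached by 0, 1, 1 and 0 members (APP in homozygous and BACE1 in heterozygous cells). Neither did any member pass between homozygous and heterozygous cells (15.9% of genes did, unadjusted 0) or in the test of whether the homozygous effect depended on differentiation (4.5%, unadjusted 1, APP). MAPT and PSEN2 fell below the filter on low counts in undifferentiated and Flp-In cells, which left 4 members tested there and 6 elsewhere. Medians over the tested members were -0.19, 0.07, 0.02 and 0.26 on the log2 scale in the 4 D262V comparisons, against 0.04, 0.01, -0.02 and 0.03 over all genes tested.

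APP in homozygous differentiated cells came nearest to the threshold and passed by junction reads. Its gene counts were 120, 133 and 144 CPM in WT and 194, 175 and 153 CPM in homozygous libraries, so every homozygous library was higher, with a log2 fold change of 0.39 ± 0.13 (SE) and an adjusted p of 0.081. Summed over its listed junctions, APP, 1 of 2 members tested, rose by 0.21 ± 0.08 on the log2 scale (adjusted p = 0.036), in a test where 32.7% of genes passed. On its most-read junction alone the difference was 0.19 with an adjusted p of 0.11, and leaving out WT library 1 or 2, or homozygous library 1 or 3, also ended the call. Neuronal maturation markers stood higher in the same libraries, at a sum of 1172 to 1214 CPM in WT and 1364 to 1835 CPM in homozygous cells, with all 7 above 1 CPM in both. NEFL had 99.2 to 104 CPM in WT and 154 to 198 CPM in homozygous libraries, and GAP43 251 to 291 and 371 to 497 CPM. Mesenchymal markers summed to 16.95 to 25.3 and 26.2 to 27.8 CPM, with 4 and 5 of 6 above 1 CPM and PRRX1 at 0, and Schwann-like ones to 13.8 to 15.2 and 9.04 to 11.1 CPM, with 3 and 2 of 6 above 1 CPM and FABP7 at 0. The part of these markers in the APP, NCSTN and MAP2 results of homozygous cells was not tested, and MAP2 is itself 1 of the 7 neuronal markers. In heterozygous cells APP differed by 0.13 ± 0.13 in gene counts and 0.03 ± 0.11 in junction reads, neither of which passed.

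APLP2, 1 of 4 members tested, rose in undifferentiated homozygous cells by junction reads, by 0.40 ± 0.13 on the log2 scale (adjusted p = 0.042), where 11.1% of genes passed. Its gene counts in the same libraries differed by -0.21 ± 0.47. The junction chr11:130133728-130135561 had 18.2, 13.5 and 18.1 RPM in WT and 20.7, 23.0 and 21.3 in homozygous libraries. Without WT library 2 or 3 or any 1 homozygous library the call was lost, with adjusted p-values of 0.072 to 0.19. Mesenchymal markers summed to 21.3 to 27.5 CPM in undifferentiated WT and 81.8 to 120 CPM in homozygous libraries, with 3 and 5 of 6 above 1 CPM and PRRX1 at 0. COL3A1, a fibrillar collagen gene, had 0.236 to 0.938 CPM in WT and 29.2 to 41.0 CPM in homozygous libraries, and VIM 2.19 to 4.72 and 22.6 to 38.5 CPM. Neuronal markers summed to 233 to 313 and 195 to 232 CPM, with 6 and 7 of 7 above 1 CPM, and Schwann-like ones to 4.21 to 22.2 and 14.6 to 29.4 CPM, with 3 of 6 above 1 CPM in both groups. The part of these markers in the APLP2, NCSTN, KLC1 and splicing results of undifferentiated cells was not tested. No member passed by junction reads in heterozygous cells (25.3% of genes did, DESeq2 also 0, unadjusted 1, PSEN2 at -0.26 ± 0.12) or in Flp-In cells (16.6%, DESeq2 also 0, unadjusted 0). On its most-read junction alone PSEN2 fell in heterozygous cells by 0.40 on the log2 scale (adjusted p = 0.033).

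**Figure D4:**
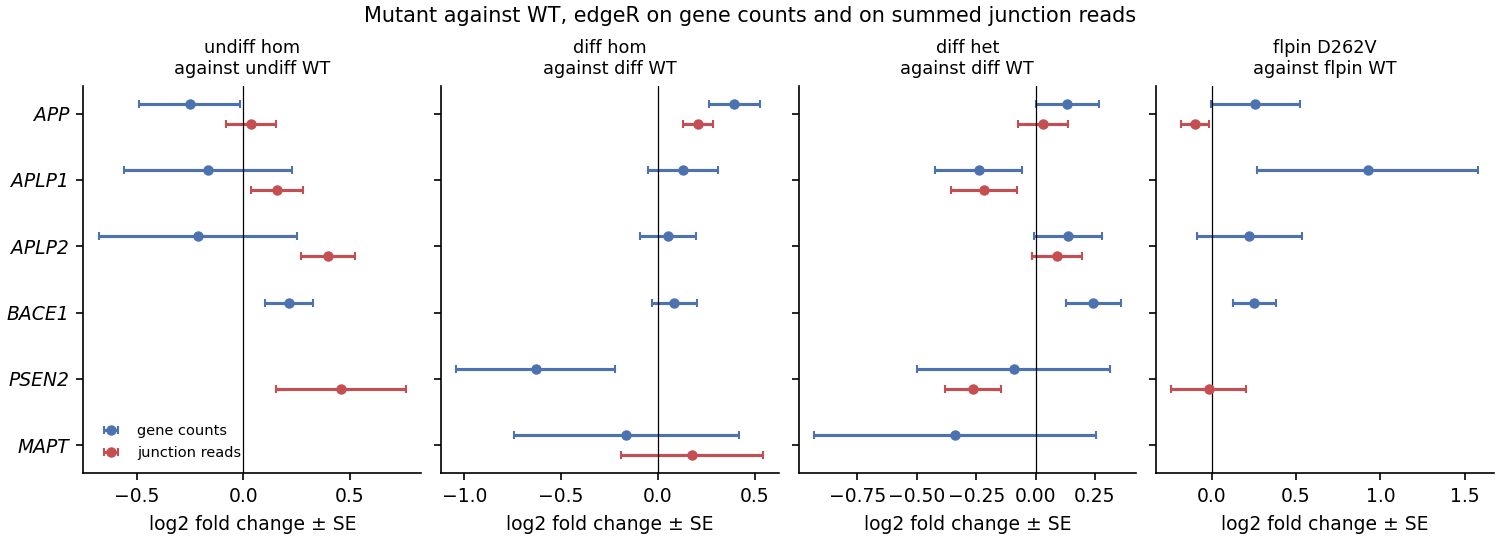
Points give log2 fold changes of D262V against WT with SE from edgeR, in blue from gene counts and in red from summed junction reads, 1 panel per comparison with its own horizontal scale (undiff and diff, undifferentiated and differentiated SH-SY5Y; flpin, Flp-In 293; hom and het, homozygous and heterozygous). Most intervals reach 0; APP in homozygous and APLP2 in undifferentiated homozygous cells passed by junction reads, at 0.21 and 0.40. A missing point means that the gene was below the filter or had no listed junction.

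Gene counts of more members differed between the 2 states of WT cells, in which neuronal markers summed to 233 to 313 CPM (undifferentiated) and 1172 to 1214 CPM (differentiated), and their part was not tested. By gene counts 4 of the 6 passed edgeR's quasi-likelihood test between differentiated and undifferentiated WT cells, 3 higher and 1 lower, where 43.1% of all genes passed (26.6% higher, 16.5% lower) and the median gene was 0.39 higher on the log2 scale. The data of the 2 states came in separate tables, so state and table cannot be told apart. Counts assigned to APP rose by 0.77 ± 0.18 (adjusted p = 0.0026), from 92.8, 76.0 and 55.03 CPM to 120, 133 and 144 CPM. Those of APLP2 rose by 1.16 ± 0.33 (adjusted p = 0.010), from 24.8, 9.41 and 37.5 CPM to 56.4, 53.3 and 56.3 CPM. For both genes all 3 differentiated libraries lay above all 3 undifferentiated ones. Those of APLP1 rose by 0.75 ± 0.28 (adjusted p = 0.041) from 20.8 to 36.5 CPM on average, a call lost without undifferentiated WT library 1 or 3 or differentiated WT library 1 or 2 (adjusted p of 0.058 to 0.15). Those of BACE1 fell by 0.64 ± 0.10 (adjusted p = 9.2e-05), from 450, 384 and 438 CPM to 275, 264 and 309 CPM, with the limit on its antisense partner given above. PSEN2, at 2.24 ± 0.88 (adjusted p = 0.051), and MAPT, at 0.76 ± 1.04, did not pass, and DESeq2 called PSEN2 as well (adjusted p = 0.0096).

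Junction reads that were listed in both states gave differences of the same sign for APP and APLP2, untested between tables. The junction between APP exons 2 and 3 had 34.3 ± 6.02 RPM in undifferentiated and 123.5 ± 8.56 in differentiated WT cells. For APLP2, chr11:130133728-130135561 had 16.6 ± 2.68 and 52.6 ± 1.82. An APLP1 junction near its 3′ end (chr19:35877825-35878083) had 12.3 ± 1.92 and 16.1 ± 0.663. In bulk RNA, more cells of a type and more RNA per cell cannot be told apart.

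The 250 bases before a listed start of each of the 3 genes whose counts rose with differentiation are shown for comparison. They come from RefSeq (GRCh38.p14), run 5′ to 3′ in each gene's direction, and have GGGCGG or its reverse complement CCGCCC in capitals, where neighbouring matches may share a base. APP is chr21:26170771-26171020 (minus strand), the nearer of 2 listed starts to the exon 1 splice site, APLP1 is chr19:35868324-35868573 (plus) and APLP2 chr11:130070318-130070567 (plus). The APLP2 start lay 674 bases inside the gene's span, which begins at chr11:130069894, so its window is within the gene. The APP window also lies within its gene's span, which ends at chr21:26171128.
APP promoter: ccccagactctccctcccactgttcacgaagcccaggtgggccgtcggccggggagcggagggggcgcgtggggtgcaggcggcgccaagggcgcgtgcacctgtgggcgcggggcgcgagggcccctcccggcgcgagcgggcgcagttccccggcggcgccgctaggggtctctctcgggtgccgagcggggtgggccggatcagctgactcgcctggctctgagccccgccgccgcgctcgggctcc
APLP1 promoter: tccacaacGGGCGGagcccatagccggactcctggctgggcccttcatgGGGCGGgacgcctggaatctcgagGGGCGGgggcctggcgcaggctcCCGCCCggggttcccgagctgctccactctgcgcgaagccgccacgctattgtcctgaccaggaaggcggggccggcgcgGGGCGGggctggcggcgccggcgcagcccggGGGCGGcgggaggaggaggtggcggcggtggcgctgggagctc
APLP2 promoter: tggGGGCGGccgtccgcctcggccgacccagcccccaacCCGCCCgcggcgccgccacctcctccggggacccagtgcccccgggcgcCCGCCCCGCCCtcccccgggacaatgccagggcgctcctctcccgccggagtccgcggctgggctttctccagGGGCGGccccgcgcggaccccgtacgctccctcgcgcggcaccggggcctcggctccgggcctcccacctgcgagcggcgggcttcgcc
APLP1 held 6 and APLP2 5 copies of GGGCGG on either strand and APP none, while 42.6% of all 35116 promoters of this length held at least 1. TATAAA and AGGTCA, searched on both strands, occurred in none of the 3, and in 10.7% and 12.1% of all promoters. G and C made up 78.8%, 77.2% and 82.4% of these windows, against a median of 58.0%. These matches describe letters and not binding.

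Ordered over the 7 groups, APP gene counts were highest in differentiated homozygous cells (174 CPM), then heterozygous (142) and WT (133), with overlap between neighbours. A gap separated these from undifferentiated WT (74.6) and homozygous cells (62.9) and from Flp-In cells with the D262V (51.0) and WT transgene (45.2), which overlapped in turn. APLP1, at 39.9 to 18.7 CPM on average in SH-SY5Y groups, was at 5.42 and 2.90 CPM in the Flp-In groups, below every SH-SY5Y library. APLP2 was at 59.5 to 55.3 CPM in the differentiated groups and 30.3 to 20.7 CPM in the other 4 groups, with a gap between. BACE1 was highest in undifferentiated homozygous cells (494 CPM), then WT (424) and differentiated heterozygous cells (327), with no overlap between these neighbours, and the other groups overlapped between 299 and 251 CPM. PSEN2 averaged 0.808 to 4.0 CPM. MAPT had 7 to 37 reads in each differentiated library, 0 to 7 in undifferentiated ones and at most 1 in Flp-In libraries, too few to order the groups.

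**Figure D5:**
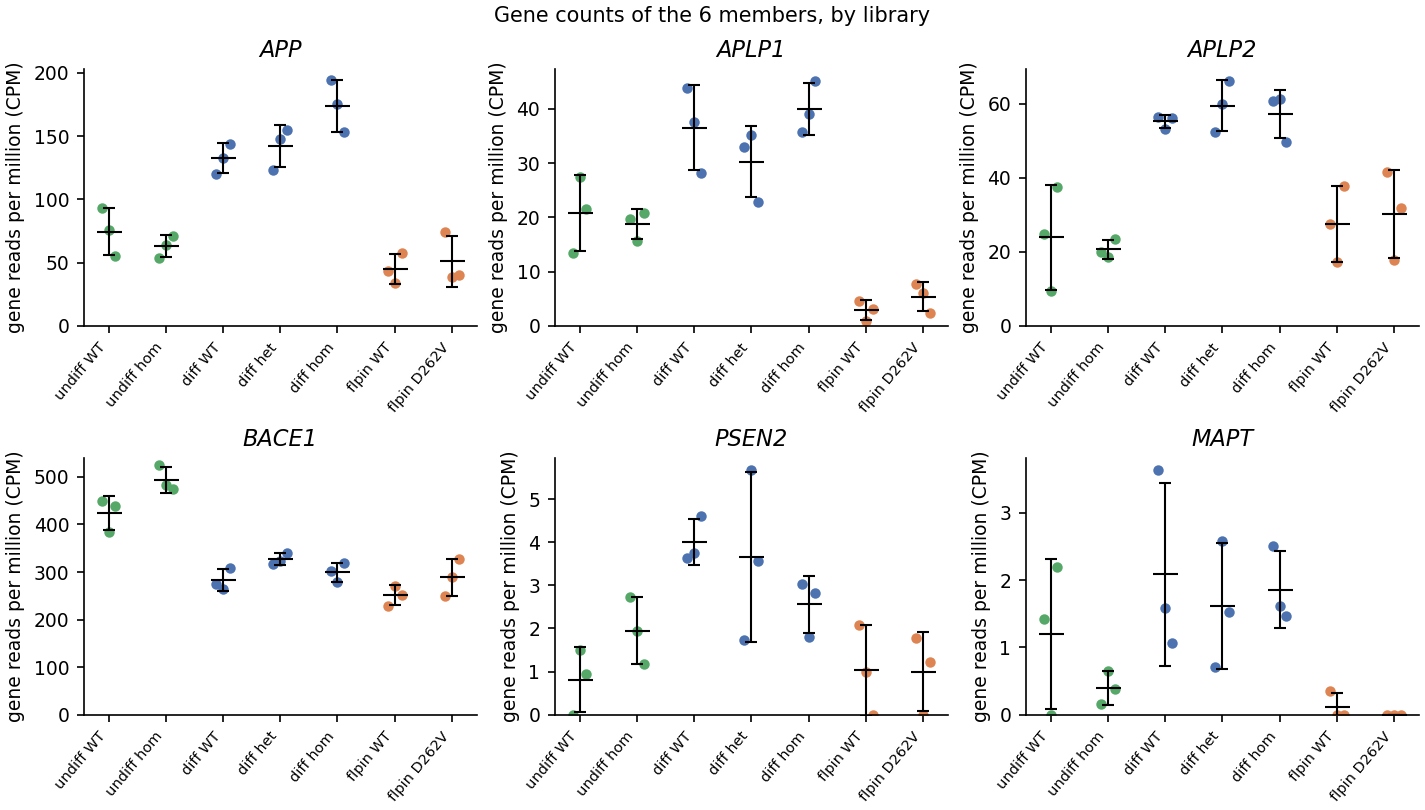
Each panel gives 1 gene in gene counts (CPM) by library, with the group mean and SD as bars (green undifferentiated SH-SY5Y, blue differentiated SH-SY5Y, orange Flp-In 293) and its own vertical scale from 0. APP, APLP1 and APLP2 are highest in differentiated cells and BACE1 in undifferentiated ones, at up to 494 CPM on average.

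The genes whose log2 CPM followed each member most closely over the 21 libraries were taken from 7398 genes with enough counts, as a description that groups and depth shape. For APP they were MAP1B, a microtubule-associated protein gene (Pearson r = 0.96), and RP5-1065J22.8 (r = 0.95). APLP1 had YIF1A and DBNDD1 (r = 0.96 for both), APLP2 had CAPZB (r = 0.94) and RP11-156K23.3 (r = 0.92), and BACE1 had TTN (r = 0.95) and TMEM63A (r = 0.94). MAPT and PSEN2 had too few counts to be compared.

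Around these members, a list of 50 further genes of APP cutting, APP sorting, amyloid-beta breakdown and tau phosphorylation or microtubule binding was read from the same fits. By gene counts 1 of 35 tested passed in undifferentiated homozygous cells (lower), 3 of 46 in homozygous (2 higher), 8 of 46 in heterozygous (4 higher) and 0 of 27 in Flp-In cells, shares to be read against the percentages of all genes above. By junction reads 1 of 19, 10 of 22 (8 higher), 13 of 32 (8 higher) and 3 of 15 (2 higher) passed. Among all genes 11.1%, 32.7%, 25.3% and 16.6% passed by junction reads, in the same order. The 2 measures disagreed for ECE1, an amyloid-beta degrading gene of the list. In differentiated homozygous cells it was called lower by gene counts and higher by junction reads, and the cause was not tested. MAP2, a dendritic microtubule protein, rose in homozygous cells by both measures, by 0.67 ± 0.20 on the log2 scale in gene counts (adjusted p = 0.039) and 0.73 ± 0.11 in junction reads (adjusted p = 9.0e-07). The gene-count call was lost without any 1 of the 3 WT libraries or homozygous library 1 or 2 (adjusted p of 0.088 to 0.35), the junction call in none of these. In heterozygous cells 4 genes passed by both. ADAM9, a metalloprotease that can act as alpha-secretase, went from 0.06 to 0.29 CPM in WT to 0.72 to 1.33 CPM in heterozygous libraries and rose by 2.78 ± 0.93 in gene counts (adjusted p = 0.040) and by 1.61 ± 0.18 in junction reads (adjusted p = 5.8e-06). APBA1, an adaptor that binds the APP tail, rose by 1.67 ± 0.58 (adjusted p = 0.047) and 0.76 ± 0.19 (adjusted p = 0.0092) in the same order, and MAP4 by 0.69 ± 0.18 (adjusted p = 0.0069) and 0.40 ± 0.11 (adjusted p = 0.012). The gene-count calls of ADAM9 and APBA1 were each lost without most single libraries (ADAM9 all but heterozygous library 2, APBA1 all but WT library 1). By junction reads APBA1 was lost without WT library 1 (adjusted p = 0.053), and MAP4 without WT library 1 or 2 (0.070 and 0.074). SORCS1, a sorting receptor that binds APP, fell by 1.35 ± 0.26 (adjusted p = 3.5e-04) and 1.22 ± 0.14 (adjusted p = 5.2e-06). Its gene counts were 19.2, 17.01 and 15.3 CPM in WT and 5.08, 7.94 and 6.73 CPM in heterozygous libraries, with no overlap, and its calls held without any 1 library. In differentiated homozygous cells ADAM9 was also called higher by gene counts, at 1.11 to 1.38 CPM, and APBA1 by junction reads.

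The next pair of genes was chosen after their values were seen. Among the gamma-secretase partners, NCSTN, the nicastrin gene, rose by junction reads in both homozygous comparisons, by 0.54 ± 0.12 in undifferentiated (adjusted p = 0.0055) and 0.33 ± 0.08 in differentiated cells (adjusted p = 0.0015). KLC1, a kinesin light chain linked to APP transport, fell by gene counts in undifferentiated homozygous cells by 1.34 ± 0.19 (adjusted p = 0.0026), while its junction reads there differed by -0.06 ± 0.15. Between differentiated and undifferentiated WT cells 18 of 47 tested list genes passed by gene counts, 15 of them higher, against 43.1% of all genes (26.6% higher). Those higher included MAP1A, MAP1B, MAP2 and MAP6 of 6 microtubule-associated genes. The median over all tested list genes was 1.02, against 0.39 over all genes tested.

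The other members differed in hnRNPA1 clusters. APLP2 had 60, 58, 54 and 57 and BACE1 28, 25, 38 and 36 clusters in the order Flp-In WT, Flp-In D262V, SH-SY5Y WT and SH-SY5Y D262V. APLP1 had none in Flp-In cells, where its counts were lowest, and 6 and 7 in SH-SY5Y cells. MAPT and PSEN2 had none in any list, and neither did 56.1% to 58.2% of 15844 protein-coding genes in a given list. Together these genes held 359 to 391 of 483849 to 583264 clusters per list.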

How the data were processed

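The genes and the gene lists were chosen with earlier results of these data known. Per the labels, poly(A) RNA went into NEBNext Ultra Directional libraries, and build hg38 with HTSeq, Cufflinks, DESeq2 and STAR 2.5.3a stands in the submitters' processing notes. The authors deposited whole read counts per gene, junction read counts, usage as a percent and likelihood-ratio p-values with Benjamini-Hochberg adjustment, in tables named for the JUM program. The names of these tables say that they hold events kept at a p-value of 0.05, so junction sums cover listed events alone and other events were not analysed here. They also deposited pooled irCLIP clusters with a score of unstated unit. Annotation and strand setting: not given in the sources used here. Rows that name no gene stayed out of library sizes.

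Gene counts, and reads summed over a gene's listed junctions, were fitted with edgeR 4.0.16 in R 4.3.3 (TMM scaling, default filter on low counts, quasi-likelihood test, adjusted p under 0.05 over all genes). The differentiated table was fitted with its 3 groups together, and differentiation and its interaction with genotype over the 12 WT and homozygous SH-SY5Y libraries. DESeq2 1.42.0 was an alternative. The fits were tested on simulated data. Exon shares took the mean of both inclusion junctions, 1 of which can be shared with another form of the exon. Type estimates were products of choices. Clusters were assigned by centre and strand, and promoter letters came from RefSeq tables. All 6 members were to be described whatever their values, with changed events, known optional exons and the list genes that passed by both measures.

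Replicates differed by more than sampling noise (chi-square per degree of freedom of at least 4.50), and each was counted once. Alternatives were other scaling, no filter, DESeq2, a replicate block, single junctions, other usage and read minimums, and leaving out each library. Gene counts of a few reads per library limit MAPT and PSEN2.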

Additional observations from a re-analysis of the deposited data

Results flagged for a closer look

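In the APP choices given here D262V values lay above WT in differentiated SH-SY5Y cells and below it in Flp-In cells, with no overlap between groups. The Flp-In differences in exon 7 and exon 8 choice did not pass (adjusted p of 0.4 and 0.25 in the authors' deposited table), and for the entry into exon 7 homozygous cells overlapped with WT and are left out. The share of exon 6 reads joined to exon 7 was 17.02 points higher in heterozygous than in WT cells while D262V minus WT transgene was -2.907 points in Flp-In cells. The share of exon 7 reads joined to exon 8 was 25.05 points higher in heterozygous and 10.01 points higher in homozygous cells, against -8.81 points in Flp-In cells. The estimated share of APP770 was 13.24 and 2.151 points higher in heterozygous and homozygous cells against -9.548 points in Flp-In cells. These differences between cell lines were not tested. The lines also differ in their WT levels (exon 7 shares of 19.0% and 93.4%), in depth and in whether D262V came from the gene or a transgene, which cannot be told apart.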

How the results depend on the processing

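The differences in APP exon 7 and exon 8 shares kept their direction in all 3 comparisons under all 8 alternatives each: leaving out each library, and using 1 inclusion junction alone. Leaving out single libraries gave 15.0 to 16.56 points for exon 7 and 9.934 to 10.92 for exon 8 in heterozygous cells. Requiring a usage difference of 20 points left 4 of 7 changed heterozygous sub-junctions and 0 of 4 homozygous ones. Leaving out single libraries gave 7 to 8 and 2 to 4, the latter 2 without differentiated WT library 3, homozygous library 1 or homozygous library 2.

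By gene counts no member changed between D262V and WT under any alternative, except that fitting only the 6 libraries compared called 1 gene, APP, in homozygous cells (adjusted p = 0.0093). The interaction called 0 to 1 when libraries were left out, 1 being APP without undifferentiated WT library 3 (adjusted p = 0.027), and differentiation 3 to 5. By junction reads the call of APLP2 in undifferentiated homozygous cells was lost with the replicate block (0 genes, adjusted p = 0.052), on the most-read junction alone (0 genes, adjusted p = 0.050) and in a range of 0 to 1 over left-out libraries. APP in homozygous cells was likewise 0 on the most-read junction and 0 to 1 over left-out libraries, and 1 gene, PSEN2, was called in heterozygous cells on the most-read junction. Causes were not tested. Replicate numbers did not pair the samples: deviations of same-numbered libraries correlated at -0.14 to 0.07 over 15 pairs, and 7 of 15 libraries correlated best with their own number. The replicate block also ended the calls by gene counts of APLP1 in differentiation (adjusted p = 0.060), MAP2 in homozygous cells (0.061) and ADAM9 (0.057) and APBA1 (0.058) in heterozygous cells, and moved the count over all genes in undifferentiated homozygous cells from 415 to 237. That count was 796 with DESeq2 and 816 with no filter, the homozygous one 1832 against 1024 with only the compared libraries, and the interaction 1672 with DESeq2 and 1184 with no filter against 755. For undifferentiated homozygous cells leaving out single libraries gave 98 to 428 genes, the lowest without homozygous library 3. Counting clusters at or above a list's median score left 227 of 374 in Flp-In WT, 217 of 380 in SH-SY5Y WT and 182 of 359 in SH-SY5Y D262V.

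Of 944 single-gene and single-exon values recomputed, 862 were unchanged in call and direction, 43 lost a call, 5 gained one, 8 exon shares moved by more than the replicate SD and 26 turned direction, none of them a value that passed its test. The 8 used 1 inclusion junction alone: heterozygous minus WT became -2.392 points for the 27-nt APLP1 exon (undifferentiated homozygous -3.905), -31.88 for a 62-nt APLP1 exon form (-0.1403 with both junctions, of which the downstream one is shared with a 144-nt form), 0.1575 for APP exon 2, 1.315 for exon 10 (homozygous 0.535) and 1.045 for exon 11 (homozygous 0.66). The 62-nt form had only 21, 17 and 4 skipping reads in WT and 7, 9 and 6 in heterozygous libraries. Its upstream junction had an adjusted p of 0.36 in the authors' deposited table, so this difference did not pass. The 26 log2 values follow, with their range when single libraries were left out. By gene counts in undifferentiated homozygous cells APLP1 ranged from -0.41 to 0.089 (above 0 without WT library 2) and APLP2 from -0.59 to 0.28 (without WT library 3). In homozygous cells MAPT ranged from -0.47 to 0.49 (without WT library 1), APLP1 from -0.025 (without WT library 3) to 0.29 and APLP2 from -0.00486 (without homozygous library 1) to 0.14. In heterozygous cells MAPT ranged from -0.86 to 0.30 (without WT library 1; 0.014 without heterozygous library 1) and PSEN2 from -0.56 to 0.25 (without heterozygous library 1; 0.015 without WT library 3). In Flp-In cells APLP2 ranged from -0.12 (without D262V library 1; -0.020 without WT library 2) to 0.49 and APP from -0.17 (without D262V library 1) to 0.44. Homozygous against heterozygous, MAPT ranged from -0.18 (without heterozygous library 1; -0.11 without homozygous library 1) to 0.70, and the interaction of APLP2 from -0.19 (without undifferentiated WT library 3) to 0.65. By junction reads APP in undifferentiated cells ranged from -0.046 (without homozygous library 2; -0.0140 without WT library 3) to 0.12, and MAPT in homozygous cells from -0.043 (without WT library 3) to 0.52. APP in heterozygous cells ranged from -0.00186 (without heterozygous library 2) to 0.083 and was -0.29 on the most-read junction. PSEN2 in Flp-In cells ranged from -0.12 to 0.073 (without WT library 2; 0.0035 without WT library 1 and 0.068 without D262V library 3) and was 0.12 on the most-read junction. KLC1 in undifferentiated cells ranged by junction reads from -0.16 to 0.043 (without homozygous library 3) and was 0.029 on the most-read junction, on which the calls of NCSTN there (adjusted p = 0.054) and MAP4 in heterozygous cells (0.14) were lost.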
